A study of Mus musculus with 9 samples.

Results

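The genes described are 10 members of the glutathione S-transferase (GST) superfamily, 5 of the mu class (Gstm1, Gstm2, Gstm3, Gstm4 and Gstm6), 2 of the alpha class (Gsta1 and Gsta4), and 1 each of the pi (Gstp1), kappa (Gstk1) and theta (Gstt1) classes. They were taken by symbol through their Ensembl identifiers from the 31685 genes listed, and 10 of 10 were found. Expression was measured by RNA sequencing of the jejunum of 9 male wild-type C57BL/6J mice, 6 to 8 weeks old, with 3 mice in each of 3 groups, on day 3. Control mice were untreated. TAI mice had total abdominal irradiation (TAI) with 12 Gy of X-rays given at once, and TAI/IVIg mice received the same dose and then intravenous immunoglobulin (IVIg, pooled human immunoglobulin G) at 500 mg/kg within 1 h, with further injections every 3 days. The series' text gives PBS as the treatment of the irradiated mice without IVIg. All samples carry the same batch label. The labels call the tissue jejunal epithelium, whereas the extraction note says jejunal tissue, and markers of smooth muscle and stroma were present in every mouse.

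GSTs join the tripeptide glutathione to electrophilic molecules such as xenobiotics and the aldehydes and hydroperoxides left by lipid peroxidation. The conjugates are pumped out of the cell by ABC transporters and then trimmed by peptidases. Alpha, mu, pi and theta GSTs are cytosolic enzymes, whereas the kappa enzyme resides in mitochondria and peroxisomes, and in the small intestine the alpha and pi classes are abundant in the epithelium. Many GST genes are known targets of the transcription factor Nrf2, which binds antioxidant response elements together with small Maf proteins.

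The values are FPKM, fragments scaled to exon length and to library size, a scale per length on which levels may be compared between genes. The whole reads behind them were recovered from the steps between values, and the 9 libraries held 16284386 to 18244535 reads. Levels of every member passed the filter used for testing, 1 FPKM or more in 3 or more mice, as did 13056 genes in all. The fewest reads behind a member's value were 47, for Gstm6 in control 3. Fold changes of log2(FPKM + 1) were taken from a limma fit of all 9 mice. The 10 genes were chosen by measured values, their FPKM levels and group differences in these same mice. Their differences from control are therefore a description without a test, and only TAI/IVIg against TAI was tested for them. Which group differences guided the choice is not given, so the members' p-values and intervals in that comparison may not be free of it. Nothing says whether the mice of a group were housed or treated apart, so p-values measure the spread between these samples.

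The mu genes lie side by side on chromosome 3 of GRCm38, and the promoters of the neighbours Gstm6 and Gstm3 are shown first because these genes moved in opposite directions after TAI. Those of Gsta1 and Gstp1 follow because these genes had the highest control levels. The windows hold 250 bases before and 50 bases after the transcription start in RefSeq (GRCm38.p6), at chr3:107943685-107943984 (minus strand) for Gstm6, chr3:107969125-107969424 (minus strand) for Gstm3, chr9:78230419-78230718 (plus strand) for Gsta1 and chr19:4037863-4038162 (minus strand) for Gstp1. Capitals mark matches, on either strand, to the relaxed antioxidant response element TGANNNNGC or to the AP-1 motif TGANTCA.
Gstm6: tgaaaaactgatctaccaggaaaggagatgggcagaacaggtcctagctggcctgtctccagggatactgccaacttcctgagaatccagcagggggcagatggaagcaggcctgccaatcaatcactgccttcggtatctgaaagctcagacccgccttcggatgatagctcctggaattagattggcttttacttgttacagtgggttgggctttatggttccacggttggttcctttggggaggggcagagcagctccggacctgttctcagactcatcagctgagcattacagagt
Gstm3: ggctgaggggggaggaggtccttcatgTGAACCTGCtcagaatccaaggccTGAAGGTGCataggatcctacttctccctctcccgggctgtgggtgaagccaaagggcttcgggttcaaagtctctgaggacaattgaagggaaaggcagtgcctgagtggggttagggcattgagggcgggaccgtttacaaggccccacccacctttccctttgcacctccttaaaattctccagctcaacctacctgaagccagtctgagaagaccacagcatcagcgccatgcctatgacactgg
Gsta1: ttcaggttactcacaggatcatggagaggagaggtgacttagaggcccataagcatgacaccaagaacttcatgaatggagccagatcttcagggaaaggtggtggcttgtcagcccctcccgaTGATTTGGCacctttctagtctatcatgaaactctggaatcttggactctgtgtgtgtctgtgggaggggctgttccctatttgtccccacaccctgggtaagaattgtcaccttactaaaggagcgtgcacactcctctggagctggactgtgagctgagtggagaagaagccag
Gstp1: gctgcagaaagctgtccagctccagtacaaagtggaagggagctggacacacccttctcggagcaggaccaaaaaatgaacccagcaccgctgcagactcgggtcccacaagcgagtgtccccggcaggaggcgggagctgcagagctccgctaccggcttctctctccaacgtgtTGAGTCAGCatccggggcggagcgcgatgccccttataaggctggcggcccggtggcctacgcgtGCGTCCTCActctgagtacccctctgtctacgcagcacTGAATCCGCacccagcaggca

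A window was given for 9 of the 10 genes, with Gsta4 the gene without, and where a gene had several the one nearest to its annotated start was read. TGANNNNGC was present in 5 of these 9 windows (Gstm3, Gstm4, Gsta1, Gstp1 and Gstt1) and in 41.3% of the 32851 windows of all genes. The stricter form TGACNNNGC was present in 0 of 9 and in 12.4% of all windows. TGANTCA was found in Gstp1 alone, at base -74 from the start and within a match to TGANNNNGC, against 7.81% of all windows. The core of the xenobiotic response element, GCGTG, was present in 3 of 9 windows (Gstm1, Gsta1 and Gstp1), against 32.4%, and the TATA box TATAAA in 0 of 9, against 13.6%. The windows of Gstm2, Gstm6 and Gstk1 held none of the 5 motifs, and a link between motifs and changes in level was not tested. The transcription start of the window read for Gstt1 lay 853 bases from the annotated gene start.

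Reads of some of these genes could be split with near-identical copies, and the opening of the coding sequence is shown for the families where this matters most. Each line gives the first 90 coding bases in GENCODE M21, with capitals where a base differs from the line that opens its family (Gsta1, then Gstp1).
Gsta1: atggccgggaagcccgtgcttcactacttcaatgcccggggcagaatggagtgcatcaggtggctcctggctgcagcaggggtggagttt
Gm3776: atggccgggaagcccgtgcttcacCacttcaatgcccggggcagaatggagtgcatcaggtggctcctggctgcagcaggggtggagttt
Gm10639: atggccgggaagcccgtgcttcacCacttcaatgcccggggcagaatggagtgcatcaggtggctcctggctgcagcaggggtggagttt
Gsta2: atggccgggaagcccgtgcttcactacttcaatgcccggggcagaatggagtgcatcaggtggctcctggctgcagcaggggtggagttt
Gstp1: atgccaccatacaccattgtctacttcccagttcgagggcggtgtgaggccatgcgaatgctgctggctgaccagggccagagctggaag
Gstp2: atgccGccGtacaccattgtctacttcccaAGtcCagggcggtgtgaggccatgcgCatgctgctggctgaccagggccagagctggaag

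Gm3776, Gm10639 and Gsta2 lie near Gsta1 on chromosome 9, and their coding sequences were 99.7%, 97.0% and 97.6% identical to that of Gsta1. Gstp2 lies next to Gstp1 on chromosome 19 and was 98.1% identical. Of the windows of 50 bases in the transcripts of a gene, 90.5% for Gsta1, 33.7% for Gstp1, 28.8% for Gstm3, 18.9% for Gstm1, 5.97% for Gstm6 and 5.65% for Gstm2 also occurred in a transcript of another gene, and 0% for Gstm4, Gsta4, Gstk1 and Gstt1. How reads with several matches were counted and how long the reads were are not given in the sources used here. The levels of Gsta1, Gstp1 and the mu genes that share windows are uncertain to that extent. Reads listed for Gm3776 came to 26.1% to 32.1% of those for Gsta1 in control mice, 22.2% to 31.8% in TAI mice and 16.0% to 31.7% in TAI/IVIg mice. Reads listed for the processed pseudogene Gstp-ps came to 12.5% to 13.5%, 11.1% to 17.6% and 12.6% to 14.4% of those for Gstp1 in the same groups. These shares overlapped between groups. Reads of Gstp2 came to 5.16% to 5.36% of those of Gstp1 in control and 3.74% to 4.32% in TAI mice, and reads of Gm10639 to 2.01% to 2.54% and 0.978% to 1.39% of those of Gsta1 (5 reads in each TAI mouse), so that neither overlapped between control and TAI. The FPKM of the copies was lower in TAI mice too, Gm3776 at a mean of 58.8 FPKM in control and 7.46 in TAI mice and Gstp-ps at 61.3 and 16.3.

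TAI was followed by lower levels of 7 of the 10 GST genes and higher levels of 3. The groups did not overlap for 5 of the lower genes (Gstm3, Gstm4, Gsta1, Gsta4 and Gstp1), against 38.0% of all genes tested that were lower without overlap, and for the 3 higher genes (Gstm6, Gstk1 and Gstt1), against 15.1% that were higher. Gstm1 and Gstm2 overlapped with control. As these genes were listed with the contrast in view, nothing is read from the counts. The median log2 fold change was -0.58 for the 10 genes and -0.23 for all genes tested, and 7 members lay below the latter and 3 above it. With library medians set equal the median of all genes moved to 0.05, and every member kept its direction except Gstm1, which moved to 0.019. Gstm2 kept its sign but came to -0.008, close to no change. In bulk tissue, fewer cells of a type and less RNA per cell cannot be told apart.

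**Figure D1:**
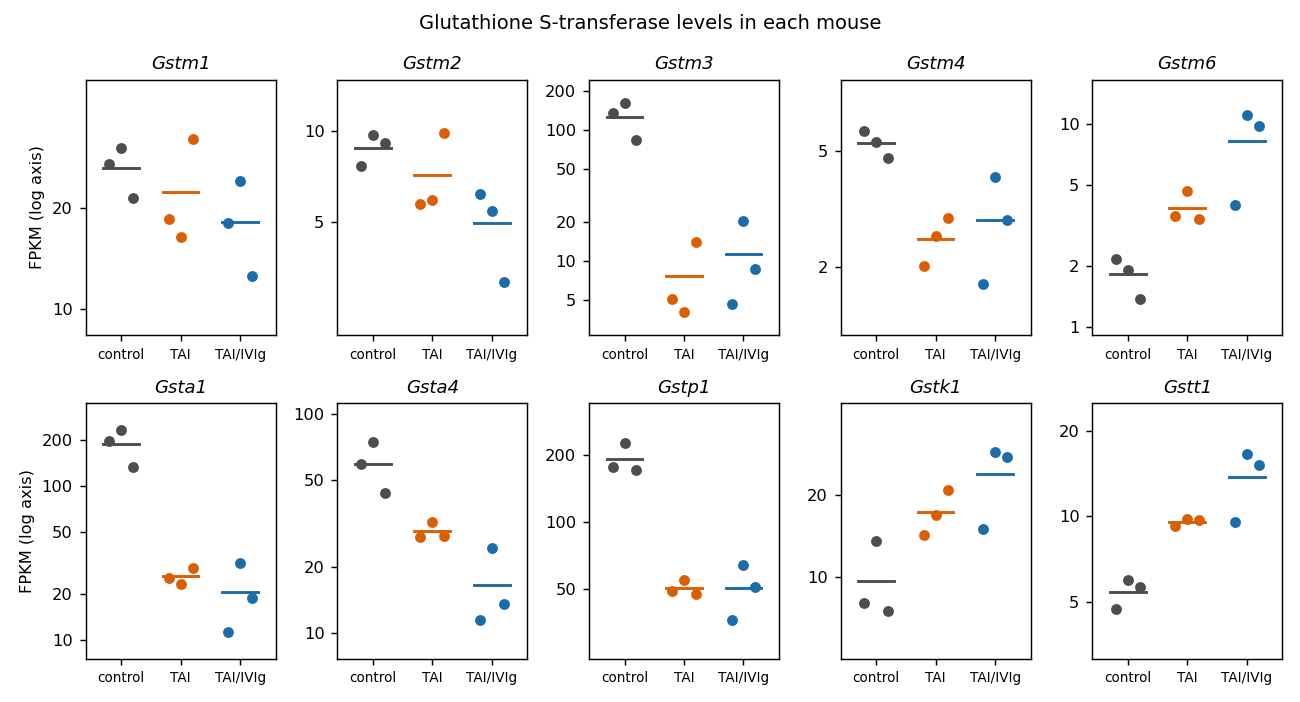
FPKM of each of the 10 genes in each mouse (points) with the mean of each group (bars), on log axes that differ between panels. Gstm3, Gsta1 and Gstp1 stood far above the irradiated groups in all 3 control mice, whereas Gstm6, Gstk1 and Gstt1 were lowest in control mice.

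Gstm3, a mu class enzyme, showed the widest difference. Its levels were 136, 161 and 83.4 FPKM in control mice, 5.12, 4.08 and 13.9 in TAI mice and 4.71, 20.3 and 8.64 in TAI/IVIg mice. The lowest control mouse was thus above every irradiated mouse. The mean was 16.4-fold lower in TAI than in control mice, a log2 fold change of -3.99 (SE 0.53), and 11.3-fold lower in TAI/IVIg than in control mice, with a log2 fold change of -3.55 (SE 0.53). TAI 3 held the highest Gstm3 level of the TAI mice. Without TAI 3 the log2 fold change against control was -4.47.

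Gstm1, which is abundant in liver as well as intestine, overlapped with control in both irradiated groups, though only TAI/IVIg 2 lay within the control range. Its levels were 27.0, 30.1 and 21.4 FPKM in control mice, 18.5, 16.3 and 32.1 in TAI mice and 18.0, 24.0 and 12.5 in TAI/IVIg mice. TAI 3 was the highest of the 9 mice, and the other TAI mice were below every control mouse. The log2 fold change of TAI against control was -0.27 (SE 0.29), and -0.55 without TAI 3. TAI 3 also stood apart in Cyp2e1, one of 4 liver genes examined, at 95.5 FPKM against 0.663 to 11.6 in the other mice, but not in albumin (Alb), at 5.92 FPKM against 5.92 to 9.30.

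Gstm2 and Gstm4 are further mu class enzymes at low levels. Gstm2 was at 7.64, 9.67 and 9.12 FPKM in control mice, 5.74, 5.93 and 9.83 in TAI mice and 6.23, 5.47 and 3.20 in TAI/IVIg mice. Again TAI 3 alone was above the control mice, and all 3 TAI/IVIg mice were below them. Gstm4 was at 5.87, 5.37 and 4.74 FPKM in control mice, 2.02, 2.55 and 2.95 in TAI mice and 1.76, 4.07 and 2.90 in TAI/IVIg mice, below the lowest control mouse in every irradiated mouse. Its mean was 2.12-fold lower in TAI than in control mice.

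Gstm6 moved the other way. It was at 2.17, 1.91 and 1.36 FPKM in control mice, 3.52, 4.66 and 3.39 in TAI mice and 3.97, 11.0 and 9.74 in TAI/IVIg mice. All irradiated mice were above all control mice, and the mean was 2.13-fold higher in TAI and 4.54-fold higher in TAI/IVIg mice. These values rested on 47 to 75 reads in control mice and 120 to 372 reads in irradiated mice. The coding sequences of Gstm6 and Gstm3 were 80.5% identical. Of 2176 windows of 50 bases in Gstm6 transcripts, 130 (5.97%) also occurred in any other gene, 76 of them in Gstm3.

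**Figure D2:**
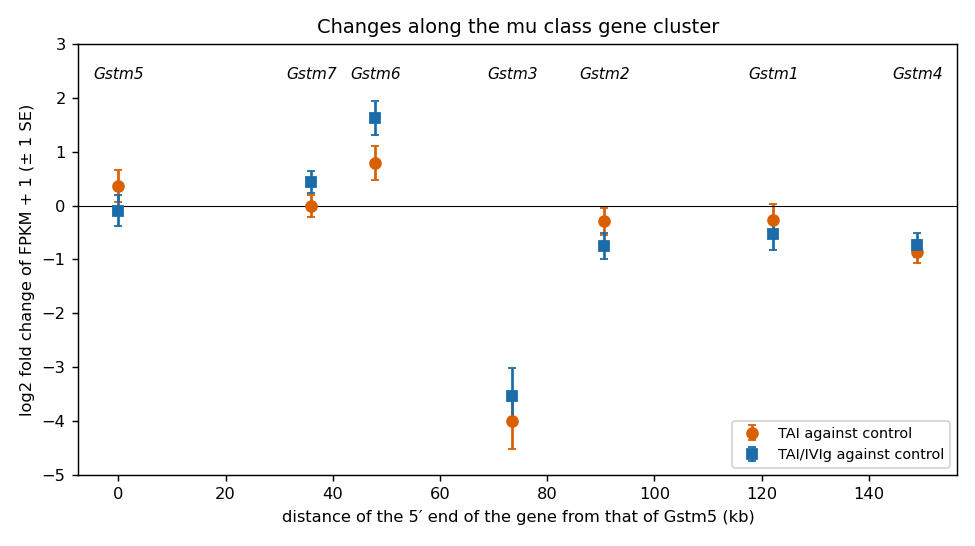
Log2 fold change of FPKM + 1 (points, with bars of 1 SE of the fit) of the 7 mu class genes, in TAI (circles) and TAI/IVIg mice (squares) against the same control mice, by the distance in kb of the 5′ end of each gene from that of Gstm5. Gstm3, at 73.5 kb, lay far below its neighbours, and Gstm6, at 47.9 kb, lay above them.

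In order along the chromosome, the mu cluster read Gstm5, Gstm7, Gstm6, Gstm3, Gstm2, Gstm1 and Gstm4, all but Gstm5 on the minus strand. Gstm6 (chr3:107938847-107943749) and Gstm3 (chr3:107963696-107969283) were separated by 19946 bases. Gstm5 and Gstm7 were not among the 10 genes and were tested, though their list was chosen with earlier results of these data known. In TAI against control their log2 fold changes were 0.36 and -0.01, with adjusted p = 0.367 and 0.974 in the limma fit over all genes. The changes along the cluster were therefore unequal, with the extremes in adjacent genes.

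Gsta1 and Gsta4 represent the alpha class, enzymes that act on products of lipid peroxidation. Gsta1 was at 197, 230 and 133 FPKM in control mice, 25.3, 23.1 and 29.3 in TAI mice and 11.3, 31.5 and 18.8 in TAI/IVIg mice. The lowest control mouse was far above the highest irradiated mouse. The mean was 7.22-fold lower in TAI mice (log2 fold change -2.77, SE 0.33) and 9.10-fold lower in TAI/IVIg mice. Gsta4, which prefers reactive aldehydes, was at 59.1, 74.5 and 43.4 FPKM in control mice, 27.5, 32.0 and 27.8 in TAI mice and 11.4, 24.5 and 13.6 in TAI/IVIg mice. It was the only member whose 3 groups did not overlap with each other, in the order control, TAI, TAI/IVIg. The means were 2.03-fold lower in TAI and 3.58-fold lower in TAI/IVIg than in control mice.

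Gstp1, the pi class enzyme, was at 177, 228 and 171 FPKM in control mice, 48.7, 55.1 and 47.4 in TAI mice and 36.4, 64.4 and 51.2 in TAI/IVIg mice. No irradiated mouse reached the control range, and the TAI/IVIg mice lay on both sides of the TAI mice. The mean was 3.81-fold lower in TAI and 3.79-fold lower in TAI/IVIg mice, with log2 fold changes of -1.90 and -1.93 (SE 0.21 for each).

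Gstk1 and Gstt1 rose from low control levels. The mitochondrial and peroxisomal Gstk1 was at 8.03, 13.6 and 7.55 FPKM in control mice, 14.3, 16.9 and 20.9 in TAI mice and 15.0, 28.9 and 27.6 in TAI/IVIg mice. Gstt1, a theta class enzyme that handles small halogenated compounds, was at 4.74, 5.96 and 5.63 FPKM in control mice, 9.24, 9.81 and 9.72 in TAI mice and 9.53, 16.6 and 15.2 in TAI/IVIg mice. For both genes every irradiated mouse was above every control mouse. The means were 1.78-fold and 1.76-fold higher in TAI mice, and 2.45-fold and 2.53-fold higher in TAI/IVIg mice. In TAI/IVIg mice against the same control mice, 6 of the 10 genes were lower without overlap (44.3% of all genes tested) and 3 higher (11.5%), and the median log2 fold change was -0.74, against -0.39 for all genes.

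**Figure D3:**
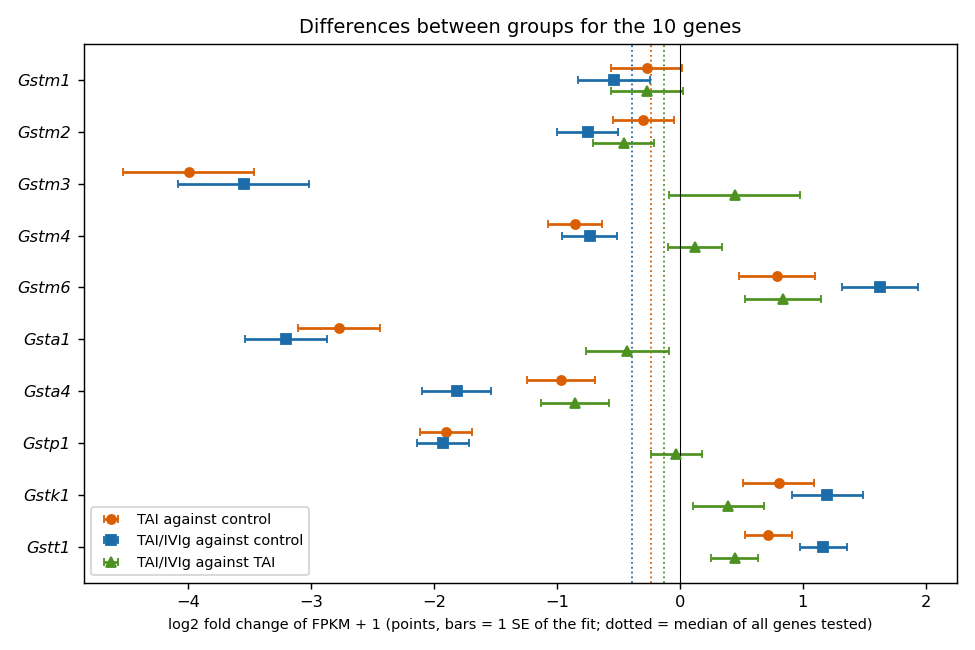
Log2 fold change of FPKM + 1 of each gene in the 3 comparisons (points, with bars of 1 SE of the fit), with dotted lines at the median of all 13056 genes tested. In both comparisons with control Gstm3, Gsta1 and Gstp1 lay far to the left and Gstm6, Gstk1 and Gstt1 to the right, whereas TAI/IVIg against TAI ran from -0.85 to 0.84.

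The summed FPKM of the 10 genes fell with these changes, and its make-up shifted. It was 622 ± 140 (SD, n = 3) in control mice, from 481 to 761, 176 ± 19.3 in TAI mice, from 160 to 197, and 171 ± 56.5 in TAI/IVIg mice, from 118 to 231. In control mice Gstp1 held 31.3% of the sum, Gsta1 29.8% and Gstm3 20.1%, whereas Gstk1 and Gstt1 held 1.55% and 0.905%. In TAI mice Gstp1 still held 28.9%, Gsta1 held 14.7%, Gstm3 4.22%, Gstk1 9.82% and Gstt1 5.49%. In TAI/IVIg mice the last 4 of these were at 11.6%, 6.03%, 14.0% and 8.18%, and Gsta4, at 16.7% in TAI mice, was at 9.52%.

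By mean level, the order in control mice was Gstp1, Gsta1, Gstm3, Gsta4, Gstm1, Gstk1, Gstm2, Gstt1, Gstm4 and Gstm6. The ranges over mice overlapped between Gstp1 and Gsta1, between Gsta1 and Gstm3, between Gstk1 and Gstm2 and between Gstt1 and Gstm4. In TAI mice the order was Gstp1, Gsta4, Gsta1, Gstm1, Gstk1, Gstt1, Gstm3, Gstm2, Gstm6 and Gstm4. There Gstp1 stood clear of all others, at 47.4 to 55.1 FPKM, and Gsta4, Gsta1 and Gstm1 overlapped. Ranges also overlapped between Gstm1 and Gstk1, among Gstt1, Gstm3 and Gstm2, and between Gstm3 and Gstm6, whereas Gstk1 and Gstt1, Gstm2 and Gstm6, and Gstm6 and Gstm4 did not overlap.

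**Figure D4:**
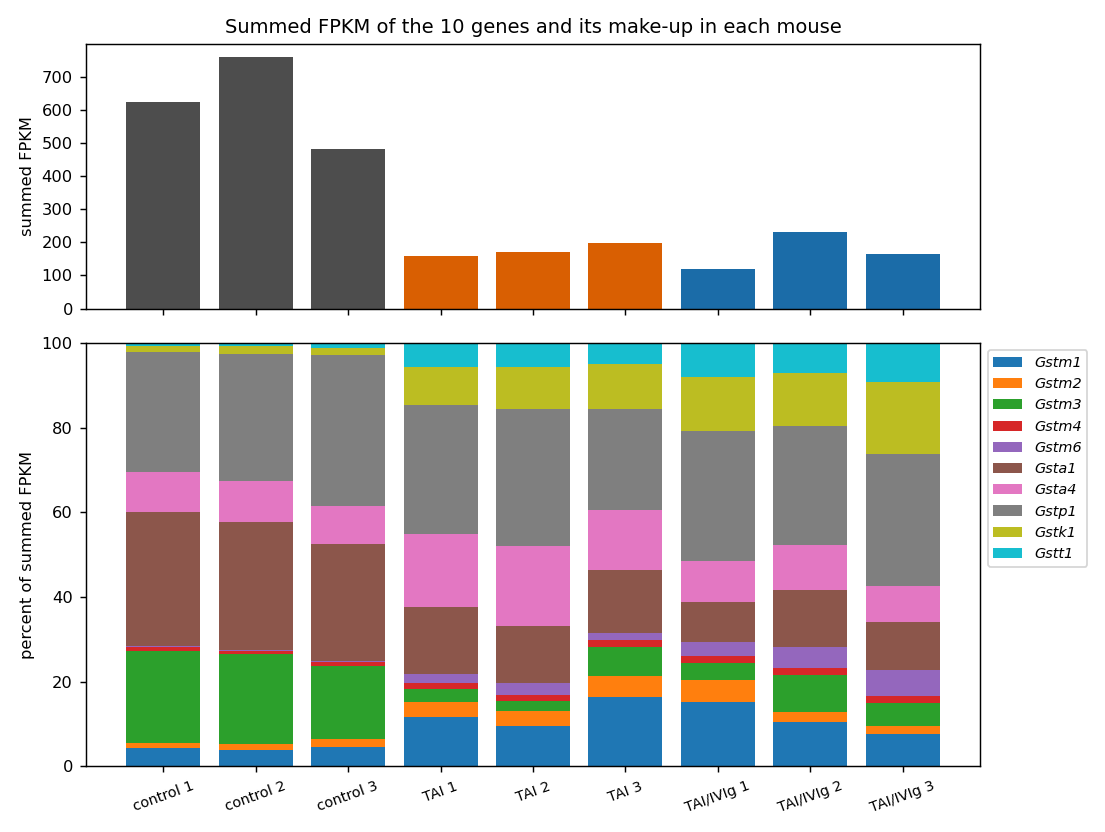
Summed FPKM of the 10 genes in each mouse (upper bars) and the percent of that sum held by each gene (lower stacked bars). The 3 control mice stood between 481 and 761, every irradiated mouse was at 231 or lower, and the shares of Gstm3 and Gsta1 were smaller and those of Gstk1 and Gstt1 larger in irradiated mice.

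TAI/IVIg against TAI asks whether IVIg altered these levels after irradiation. The limma fit called 0 of the 10 genes at an adjusted p under 0.05 (adjusted p = 0.354 to 0.965), nor did any of the 13056 genes tested (0%, smallest adjusted p = 0.353). At an unadjusted p under 0.05 there were 3 members, against 12.9% of all genes (214 higher and 1466 lower). Nothing is read from that count, since the choice of members may have drawn on these differences. With voom on the recovered reads, 0 members passed as well. Gsta4 was lower by 0.85 on the log2 scale (95% interval -1.48 to -0.22, limma adjusted p = 0.354) and was lower in 3 of 3 TAI/IVIg mice than in all TAI mice, as were 16.1% of all genes. Gstm6 was higher by 0.84 (interval 0.14 to 1.54, limma adjusted p = 0.362), and Gstt1 by 0.45 (interval 0.01 to 0.88, limma adjusted p = 0.382), but their groups overlapped, since TAI/IVIg 1 lay within the TAI range. No member was higher without overlap, against 3.09% of all genes. For Gstm3 the interval ran from -0.76 to 1.65 and for Gstp1 from -0.50 to 0.45, so that changes within these bounds could not be told from none.

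Markers of cell types moved as well. Summed over 14 markers, enterocyte signal was 14825 to 23229 FPKM in control mice and 34053 to 53878 in irradiated mice, with 8 of 14 called higher in TAI and 11 of 14 in TAI/IVIg mice. All 5 cycling markers fell in both irradiated groups, from a summed 22.7 to 58.8 FPKM in control mice to 3.32 to 5.11 in TAI and 0.991 to 3.58 in TAI/IVIg mice. Summed smooth muscle signal was 480 to 619 FPKM in control and 534 to 762 in TAI mice but 112 to 552 in TAI/IVIg mice, lowest in TAI/IVIg 3. Some sets were lower in TAI/IVIg than in TAI mice without overlap. Stroma was at 18.1 to 42.1 against 65.2 to 83.9 FPKM, and endothelium at 8.49 to 16.1 against 18.7 to 26.4. Goblet cells were at 2044 to 3498 against 3575 to 4666 and Paneth cells at 118 to 1098 against 1463 to 4054. All other sets examined overlapped, and no marker of any set was called in that comparison. Control mice overlapped TAI/IVIg mice for goblet (2310 to 3099) and Paneth cells (812 to 3991). They did not for stroma (59.5 to 82.9) and endothelium (26.2 to 32.6). Gsta4 was also lower in TAI/IVIg than in TAI mice without overlap, as were 16.1% of all genes, and a link to these sets was not tested. Summed signal of 8 immune markers ran from 24.7 to 457 FPKM, and B cell genes were high in control 3, TAI 3 and TAI/IVIg 2, with Cd79a at 142, 29.9 and 31.4 FPKM against 0.801 to 18.5 in the other mice. The part of these shifts in the GST values was not tested. With those 3 mice left out, 7 members were lower and 3 higher without overlap in TAI against control (46.7% and 25.3% of all genes), and likewise 7 and 3 in TAI/IVIg against control (56.6% and 14.8%). In TAI against control Gstm3, Gsta1 and Gstp1 then had log2 fold changes of -4.74, -3.09 and -1.93.

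Related genes of glutathione metabolism were read from 7 lists, which were chosen with earlier results of these data known. In TAI against control 3411 of all 13056 genes were called lower (26.1%) and 1150 higher (8.81%) at an adjusted p under 0.05, a split that depended on scaling, since 1823 were lower and 2159 higher with library medians set equal. In TAI/IVIg against control 4880 were lower (37.4%) and 1183 higher (9.06%), and 1894 lower and 2880 higher with medians set equal. Without TAI 1, control 2 or control 3 the genes called in TAI against control numbered 2350, 2828 and 2945 in place of 4561.

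Of 14 other GST genes tested, 6 fell after TAI and 0 rose, with a median log2 fold change of -0.63. The alpha gene Gsta2 fell from 8.56 ± 3.35 to 1.08 ± 0.170 FPKM (SD, n = 3, log2 fold change -2.14, adjusted p = 0.00154 in limma), the pi gene Gstp2 from 14.1 ± 2.46 to 2.80 ± 0.451 (-1.99, adjusted p = 0.000602) and the microsomal Mgst2 from 81.6 ± 13.7 to 30.8 ± 8.79 (-1.40, adjusted p = 0.00496). Gsta2 and Gstp2 share sequence with Gsta1 and Gstp1, as shown above, and are no separate count of those families. Of the same 14 genes, 8 fell and 0 rose in TAI/IVIg against control, with 4 falling without control 2 and 2 rising without TAI/IVIg 1. Gsta5 and Gsta13 of this list were not matched.

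Of 9 genes of glutathione synthesis and cysteine supply, 4 fell and 1 rose after TAI, and the median log2 fold change was -0.23, as for all genes. Cth, which makes cysteine from cystathionine, fell from 36.3 ± 8.42 to 8.71 ± 1.48 FPKM (log2 fold change -1.93, adjusted p = 0.000487). The glutamate and cysteine transporter Slc1a1 fell by 1.28 on the log2 scale and Gss, the last enzyme of glutathione synthesis, fell by 0.99 (adjusted p = 0.000487 and 0.00506 in limma). Slc3a1, a subunit of the cystine transporter of the brush border, rose by 1.00 (adjusted p = 0.00803). Without control 1 or TAI 2, 2 genes rose. The TAI/IVIg mice had 4 lower and 2 higher genes against control.

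Of 15 redox enzymes that use glutathione or act beside it, 8 fell and 1 rose after TAI, with a median of -0.74. Gsr, which regenerates reduced glutathione, was at 247, 213 and 253 FPKM in control mice, 60.4, 60.7 and 63.2 in TAI mice and 30.3, 52.9 and 48.0 in TAI/IVIg mice. No irradiated mouse came near the control range (log2 fold change in TAI -1.93, SE 0.20, adjusted p = 0.000552 in limma). Prdx6 fell by 2.04 and Glrx5 by 1.39 on the log2 scale (adjusted p = 0.00659 and 0.00264), and Glo1, which detoxifies methylglyoxal, rose by 0.79 (adjusted p = 0.00239). Without TAI 1, 5 genes fell. Against control, 10 fell and 2 rose in TAI/IVIg mice, with 1 rising without control 3 or TAI/IVIg 3.

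**Figure D5:**
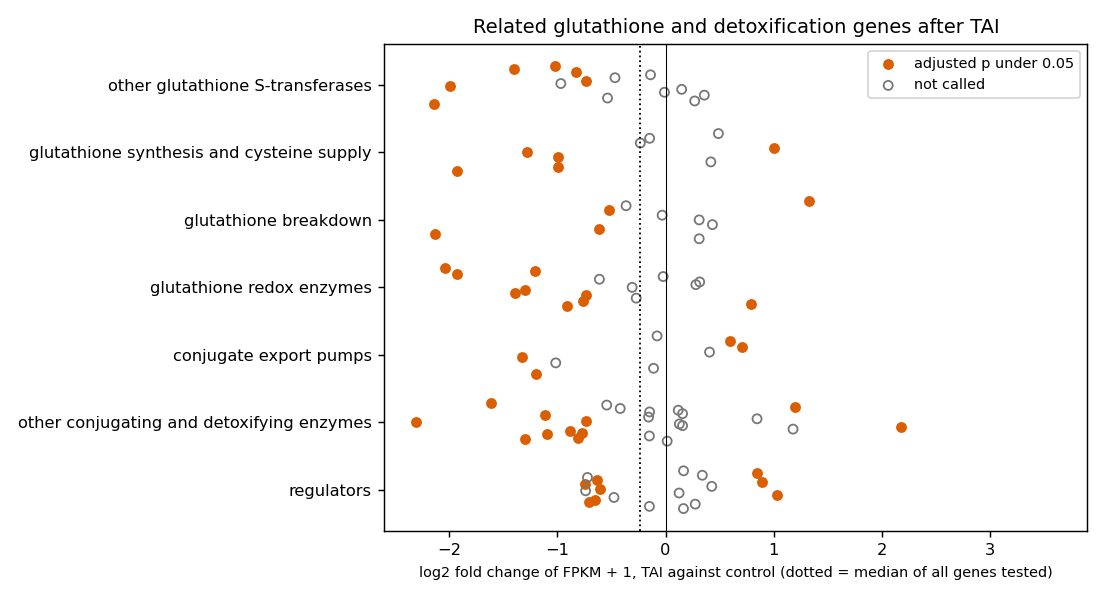
Log2 fold change of FPKM + 1 in TAI against control for every tested gene of the 7 related lists, with filled points for an adjusted p under 0.05, open points for the others and a dotted line at the median of all genes. Most filled points lie to the left, with Nqo1, Gsta2 and Chac1 farthest left and Ephx2 farthest right.

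Of 9 genes of glutathione breakdown, 3 fell and 1 rose after TAI, with a median of -0.031. Chac1, which cleaves glutathione in the cytosol, fell from 6.74 ± 1.73 to 0.757 ± 0.363 FPKM and Chac2 from 9.36 ± 0.557 to 5.77 ± 0.460 (adjusted p = 0.000487 and 0.00489 in limma, the latter 0.120 with library medians set equal). Ggt6 fell by 0.53 on the log2 scale (adjusted p = 0.0112, and 0.309 with library medians set equal). Oplah, which turns the breakdown product oxoproline into glutamate, rose from 1.29 ± 0.0686 to 4.74 ± 0.439 (adjusted p = 0.000362). With IVIg, against control, 2 fell and 1 rose, with 2 rising without control 1 or control 2.

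Of 8 conjugate export pumps, 2 fell and 2 rose, with a median of -0.095. Abcc3 and Abcb1a fell by 1.33 and 1.20 on the log2 scale (limma adjusted p = 0.0052 and 0.0219, the latter 0.0511, 0.0710 and 0.0718 without control 1, control 2 and TAI 2), and Abcg2 and Abcc5 rose by 0.59 and 0.71 (adjusted p = 0.00874 and 0.0191, the latter 0.0697, 0.0502, 0.0577 and 0.0572 without control 2, TAI 1, TAI 2 and TAI 3). The count changed with single mice, with 1 falling without control 1, control 2 or TAI 2 and 1 rising without control 2 or any TAI mouse. Without the 3 mice with the most B cell signal, 1 fell and 0 rose, with adjusted p = 0.0650, 0.0830 and 0.0655 for Abcb1a, Abcg2 and Abcc5. The same comparison of TAI/IVIg mice gave 3 lower and 1 higher.

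Of 23 other conjugating and detoxifying enzymes, 9 fell and 2 rose, with a median of -0.16. The quinone reductase Nqo1 fell from 29.0 ± 0.884 to 5.07 ± 0.352 FPKM (log2 fold change -2.31, adjusted p = 0.00035 in limma), Ugt2b35 by 1.62 and Akr1b8 by 1.30 (adjusted p = 0.00174 and 0.0201). The soluble epoxide hydrolase Ephx2 rose from 34.9 ± 8.48 to 161 ± 35.4 (log2 fold change 2.18, adjusted p = 0.000487), and the glucuronosyltransferase Ugt2a3 rose by 1.20 (adjusted p = 0.0281, but 0.0676, 0.0950, 0.104 and 0.0852 without control 1, control 3, TAI 1 and TAI 2). The number falling was 4 without control 2, TAI 1 or TAI 3 and 5 without TAI 2, and 1 rose without control 1, TAI 1 or TAI 2. Akr1b8 had an adjusted p of 0.0521, 0.0595, 0.0632 and 0.0652 without control 2, control 3, TAI 1 and TAI 3. TAI/IVIg mice had 7 lower and 3 higher against control, with 5 rising without control 1 or TAI/IVIg 1.

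Of 18 regulators, 5 fell and 3 rose, with a median of -0.012. Of the small Maf genes, Mafg fell by 0.75 and Mafk rose by 0.89 (limma adjusted p = 0.00733 and 0.0223, for Mafg 0.0571 with library medians set equal, and for Mafk 0.0633, 0.0592, 0.0807 and 0.0730 without control 2, control 3, TAI 1 and TAI 2). The intestinal transcription factors Cdx1 and Cdx2 fell by 0.70 and 0.66 (adjusted p = 0.0122 and 0.0236, with 0.0972 and 0.265 when library medians were set equal), whereas Gata6 rose by 1.03 and the xenobiotic receptor Nr1i3 by 0.85 (adjusted p = 0.00182 and 0.00693). The call of Cdx2 was also lost without control 1, control 3 or any TAI mouse (adjusted p = 0.0501 to 0.0884). The number of regulators falling was 2 without TAI 1 and 3 without control 3 or TAI 3. It was 0 with library medians set equal. Without the 3 mice with the most B cell signal 1 fell and 1 rose, and the adjusted p was 0.0531 for Nr1i3, 0.0503 for Mafk, 0.121 for Cdx1 and 0.127 for Cdx2. In TAI/IVIg against control 5 fell and 4 rose, with 3 falling without control 2, 2 falling without control 3 and 2 rising without either. In TAI/IVIg against TAI 0 genes of the 7 lists passed the adjusted threshold. The smallest unadjusted p in each list belonged to Gsta3, Slc1a1, Ggt5, Gpx3, Abcc4, Akr1b8 and Mafg, all with log2 fold changes below 0, of which Akr1b8 had the lowest at -1.33, in a comparison where most genes below an unadjusted p of 0.05 were lower.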

How the data were processed

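Jejunal RNA of 9 mice was sequenced. The authors deposited FPKM values per gene and mouse, without pooling, and the submitters' notes name FastQC, Trimmomatic, STAR, featureCounts and DESeq2 with mm10 and GRCm38, without versions. Groups came from the sample titles. All 9 columns were used. Steps between the FPKM values gave whole reads for 100% of 31685 genes (tolerance 0.002 reads), and the implied gene lengths were within 0.1% of the GENCODE M21 exon lengths for 98.4% of 31146 genes, so GRCm38 coordinates are given. Read intervals would cover counting error only.

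The limma fit (version 3.58.1, R 4.3.3) used log2(FPKM + 1) of all 9 mice, a term per group, a trended empirical Bayes step and Benjamini-Hochberg adjustment within each comparison, and the steps were tested on simulated data. Testing needed 1 FPKM or more in 3 or more mice. Calls used an adjusted p of 0.05.

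The members and lists were chosen with earlier results of these data known. Every member is named. Of each related list, up to 3 genes per direction with the largest change among those called in TAI against control are named, and the gene with the smallest unadjusted p under 0.05 in TAI/IVIg against TAI. Nearest genes are the 5 with the smallest root mean square difference in profile. Gstm5 and Gstm7 are named as neighbours, Gm3776, Gm10639 and Gstp-ps as copies, and Cyp2e1, Alb and Cd79a, whose values were seen first.

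Control and TAI mice that share a number deviated together from their group means (correlation 0.271, 0.241 and 0.308, in order of number), and pairs that include a TAI/IVIg mouse gave -0.296 to 0.201. What a shared number means is not given in the sources used here. Alternatives were a replicate block, each mouse left out, only the 6 mice compared, no trend, quantile normalization, equal library medians, a filter on a mean FPKM of 5, no filter and a pseudocount of 0.1. Voom on the recovered reads and leaving out the 3 mice with the most B cell signal were added after seeing the data.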

Additional observations from a re-analysis of the deposited data

How the results depend on the processing

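The 10 genes kept their direction in both comparisons with control under every alternative run, with the exception of Gstm1 in TAI against control, which moved to 0.019 with library medians set equal and to 0.027 with voom and median-ratio library sizes. In the same comparison Gstm2 came to -0.008 with library medians set equal, close to no change. The median log2 fold change of the 10 genes in TAI against control stayed between -0.85 and -0.29. In TAI/IVIg against control it was -1.28 with a mean FPKM of at least 5 (8 members left), -0.25 with library medians set equal, -0.26 with quantile normalization and -0.42 with voom and median-ratio library sizes. In TAI/IVIg against TAI, where no member was called, it was 0.05 and turned to -0.15 with a mean FPKM of at least 5 and to -0.098 without the 3 mice with the most B cell signal, and each mouse left out gave -0.15 (without TAI/IVIg 2) to 0.27, also below 0 without TAI 1. Single members turned in that comparison too. Gstm1 ranged from -0.48 to 0.016 (without TAI 3) with each mouse left out, Gstm3 from -0.061 (without TAI/IVIg 2) to 0.92, Gstm4 from -0.088 (without TAI/IVIg 2) to 0.35 and Gstp1 from -0.22 to 0.19 (0.038 without TAI 2), and Gstp1 was 0.18 with library medians set equal and 0.15 with voom and median-ratio library sizes. Ggt5 in TAI against control, not called at -0.031, was 0.26 with medians set equal, 0.22 with quantile normalization, 0.25 with voom and median-ratio sizes and 0.055 without the 3 B cell rich mice, and -0.17 to 0.14 with each mouse left out. The causes were not tested.

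Over all genes, TAI/IVIg against TAI gave 4 calls without a filter and 3 with the replicate block, in place of 0. The block changed no other call reported here. TAI against control gave 2350 to 4912 calls with each mouse left out and 1760 without the 3 B cell rich mice, where fewer mice enter, in place of 4561. TAI/IVIg against control gave 3381 with a mean FPKM of at least 5, where fewer genes were tested, in place of 6063. With quantile normalization 2284 genes were lower and 1994 higher in TAI against control, and 2253 lower and 2407 higher in TAI/IVIg against control. Of the values for single genes and lists, 2047 were labelled unchanged, 51 lost a call and 4 gained one. A further 123 moved by more than the spread or by more than 1.5 times, and 15 turned. Unchanged meant the same call and direction for a tested gene. For a member against control it meant a shift within the spread, and for a list a count within 1.5 times. Such counts could differ, as for other GST genes lower in TAI against control, at 4 to 8 in place of 6. The unchanged values include the list counts in TAI/IVIg against TAI, which were 0 in every setting. Fits without a mouse of the group not compared also enter the tally, and these leave fold changes as they were. In their lowest mouse Gstm6, Gstm4 and Gstm3 rested on the fewest reads (47, 54 and 87).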

Other observations

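Outside the lists, the genes whose profile over the 9 mice was nearest to that of Gstm3 were Akr1c13, Akr1c19, Tfrc, Mir1938 and Gm3776, with root mean square differences of 0.592 to 0.795 on the log2 scale. The aldo-keto reductase Akr1c13 had mean levels of 162, 15.9 and 10.9 FPKM in control, TAI and TAI/IVIg mice, its relative Akr1c19 25.7, 1.01 and 0.490, and the transferrin receptor Tfrc 32.3, 2.45 and 1.61. Nearest to the median profile of the 10 genes were Aifm2, Hibch, Gm9575, Pparg and Guca2a, with differences of 0.140 to 0.157. Aifm2, an oxidoreductase that regenerates lipid-soluble antioxidants, was at 3.22, 2.10 and 1.42 FPKM. These genes were chosen by likeness of profile, and their levels are a description.

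Some single mice, but not all, deviated in the same direction over the 10 genes. In control 2 and TAI/IVIg 2 all 10 were above their group's mean on the log2 scale, by a median of 0.23 and 0.42, and in TAI 1 all 10 were below it, by a median of 0.15. TAI/IVIg 1 had 2 of 10 above the mean, and a median deviation of -0.46. Of the 10 genes, 6 were above the mean in control 1, 2 in control 3, 5 in TAI 2, 7 in TAI 3 and 5 in TAI/IVIg 3. Whether all genes shifted alike in these mice was not tested.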
